A study of Homo sapiens with 8 samples.

Results

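The 19325 sites described here are the peaks of SOX2 chromatin immunoprecipitation with sequencing (ChIP-seq) in H9, an established human embryonic stem cell line, called by the authors against IgG chromatin of the same line. All peaks of the deposited H9 SOX2 list on chromosomes 1 to 22 and X were taken, which left out 24 of 19349, and the 6 peak lists of the series hold 201619 peaks in all. The series has 8 samples, with SOX2, OCT4, NANOG and IgG each in H9 and in NT2/D1, a germ cell tumour line. The labels give no genetic change, treatment or time for the H9 cells. The SOX2 ChIP and the IgG control of H9 were 1 library each, so no value below has a replicate error, and nothing was tested. A peak list also holds no expression, and in a pool of cells a weak site and a site bound in few cells cannot be told apart.

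SOX2 is a transcription factor of the SOX family that binds the minor groove of DNA through its HMG box and bends it. In pluripotent cells it often binds beside OCT4, the product of POU5F1, on a composite element made of a SOX site and an octamer, and the pair act on genes that keep the stem cell state, their own among them. SOX2 is also a factor of early neural progenitors, so neural regulators are among its known targets. Of 8 markers of pluripotent cells (POU5F1, SOX2, NANOG, LIN28A, SALL4, DPPA4, ZFP42 and UTF1), 7 had an H9 SOX2 peak no farther than 50 kb from their transcription start site (TSS), and LIN28A had none. Of all 19570 genes named in the lists, 27.7% had such a peak. Peaks near these markers describe binding and do not show the identity of the cells. Each peak comes with its ChIP tags (sequenced fragment ends counted in it), the fold enrichment of ChIP over background, a score that grows as the p-value falls, and a summit, the point of highest tag density.

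A few promoters show the DNA under peaks that covered a gene's start. A peak overlapped the TSS of 287 genes, and for 136 of them the promoter in the RefSeq table began at the start the authors had used. The 250 bases upstream of each start were searched on both strands for the SOX motif (CATTGT or CTTTGT), the octamer (ATGCAAAT) and the composite element, which is TTGT, any base and ATGCAAA in a row and so shares letters with the other motifs. The sequences below are the promoters with a match, with a peak score of at least 100 and with the summit inside the window. CER1 stands beside them as the highest-scoring such promoter with no match. They are RefSeq sequence of build GRCh38.p14, 5′ to 3′ on the strand of the gene, ending at the base before the TSS, and capitals mark matches.
NANOG: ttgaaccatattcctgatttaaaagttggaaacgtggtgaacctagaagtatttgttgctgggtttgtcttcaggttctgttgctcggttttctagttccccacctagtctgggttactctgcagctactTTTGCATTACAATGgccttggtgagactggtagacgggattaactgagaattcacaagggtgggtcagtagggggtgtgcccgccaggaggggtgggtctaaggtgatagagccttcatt
HDAC9: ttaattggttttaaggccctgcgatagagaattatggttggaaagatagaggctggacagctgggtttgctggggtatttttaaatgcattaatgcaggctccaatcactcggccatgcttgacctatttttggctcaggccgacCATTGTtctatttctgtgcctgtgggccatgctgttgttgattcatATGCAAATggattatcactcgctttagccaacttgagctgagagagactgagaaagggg
HOXB1: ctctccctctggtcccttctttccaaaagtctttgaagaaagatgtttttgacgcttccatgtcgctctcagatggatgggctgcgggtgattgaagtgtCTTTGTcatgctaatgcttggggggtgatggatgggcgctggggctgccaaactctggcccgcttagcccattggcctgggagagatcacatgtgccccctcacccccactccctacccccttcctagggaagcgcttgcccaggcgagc
MTF2: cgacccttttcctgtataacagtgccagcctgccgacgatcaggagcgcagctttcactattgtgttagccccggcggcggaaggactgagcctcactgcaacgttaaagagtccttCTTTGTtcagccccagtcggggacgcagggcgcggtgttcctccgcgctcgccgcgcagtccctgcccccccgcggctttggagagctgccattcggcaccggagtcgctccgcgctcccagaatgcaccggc
PDCL: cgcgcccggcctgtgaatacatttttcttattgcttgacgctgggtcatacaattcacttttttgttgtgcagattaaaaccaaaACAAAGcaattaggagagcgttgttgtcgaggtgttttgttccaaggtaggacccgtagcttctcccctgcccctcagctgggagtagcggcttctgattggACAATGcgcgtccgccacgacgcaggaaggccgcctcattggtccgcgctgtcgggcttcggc
CER1: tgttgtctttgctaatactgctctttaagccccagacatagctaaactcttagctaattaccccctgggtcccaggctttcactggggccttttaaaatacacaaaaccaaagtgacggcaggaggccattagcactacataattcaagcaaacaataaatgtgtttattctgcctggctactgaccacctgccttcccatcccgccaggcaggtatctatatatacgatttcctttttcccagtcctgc

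NANOG, a homeodomain factor of the pluripotent state, is the case among these 136 genes in which a peak overlapped the start of a promoter that held the whole composite element. Its promoter (chr12:7789152-7789401, plus strand) held the element on the opposite strand, read as TTTGCATTACAA from base -120 to -109 relative to the TSS, with an overlapping SOX match from -112 to -107. The SOX2 peak there (hg19, chr12:7941529-7942226) had 89 tags and its summit at -104. The element matched 1 of the 136 promoters that a peak overlapped (0.735%) and 3 of all 9656 promoters with a matched start (0.0311%). The other promoters among these 9656 with the element were those of FGL2 and NRARP, and neither gene had an H9 SOX2 peak within 50 kb. PIPOX, whose RefSeq promoter also held the element, had a peak of 120 tags and a fold of 9.54 over its TSS, but its RefSeq start could not be matched to the authors' start. The same held for the starts of RGS4, LSM4 and SCEL-AS1, whose RefSeq promoters held the element too. The nearest peak of RGS4 lay 4501 bp away with 37 tags, LSM4 had none within 50 kb, and SCEL-AS1 was not among the named genes. A NANOG promoter element of this kind is known as a binding site of the OCT4 and SOX2 pair.

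HDAC9, a class IIa histone deacetylase gene, held a SOX match from -105 to -100 and an octamer from -59 to -52 (chr7:18495499-18495748, plus strand), apart from each other. Its peak had 82 tags, a fold of 8.07 and its summit at -59. HOXB1, a hindbrain patterning gene, held a SOX match from -150 to -145 (chr17:48531012-48531261, minus strand) under a peak with 58 tags, a fold of 8.41 and its summit at -249. In mouse, an autoregulatory element upstream of Hoxb1 is known to bind SOX and POU factors together. MTF2, which encodes a Polycomb accessory protein, held 1 match from -133 to -128 (chr1:93079033-93079282, plus strand) under a peak with 175 tags, a fold of 17.4 and its summit at -88. PDCL, a phosducin-like gene, held 2 matches, from -165 to -160 and from -63 to -58 (chr9:122828589-122828838, minus strand), under a peak with 68 tags, a fold of 9.54 and its summit at -219. CER1, a secreted antagonist of Nodal, BMP and WNT signals, had a peak with 200 tags, a fold of 16 and its summit at -173, over a window without a match (chr9:14722734-14722983, minus strand).

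Promoters that a peak overlapped held the SOX motif more often than promoters with a peak beside them. It was found in 48 of 136 (35.3%, 95% Wilson interval 27.8 to 43.6) of the promoters whose TSS a peak overlapped. With the peak 1 bp to 1 kb away it was found in 35 of 240 (14.6%, 10.7 to 19.6), against 1545 of all 9656 promoters of the same length (16%, 15.3 to 16.7). The octamer was found in 5 of 136 (3.68%, 1.58 to 8.32) of the first set, in 6 of 240 (2.5%, 1.15 to 5.35) of the second and in 164 of all 9656 (1.7%, 1.46 to 1.98). These intervals cover counting error only, and promoters of 1 cell line are not replicates.

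Most SOX2 peaks lay over 50 kb from a listed gene start. The share of the genome at each distance was not computed, so these values describe position and show no preference for it. The median distance from a peak to the nearest listed TSS was 74801 bp, and 11373 peaks (58.9%, 95% interval 58.2 to 59.5) lay over 50 kb away. A TSS was overlapped by 288 peaks (1.49%, 1.33 to 1.67), and 848 lay within 1 kb of one, overlaps included (4.39%, 4.11 to 4.69). The class from 100 to 500 kb was the fullest of the 8, with 6348 peaks (32.8%), and 2061 (10.7%) lay over 500 kb from any listed start. The distances are the authors', from the edge of the peak to the nearest TSS on each side, so they are slightly shorter than distances from the summit.

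**Figure D1:**
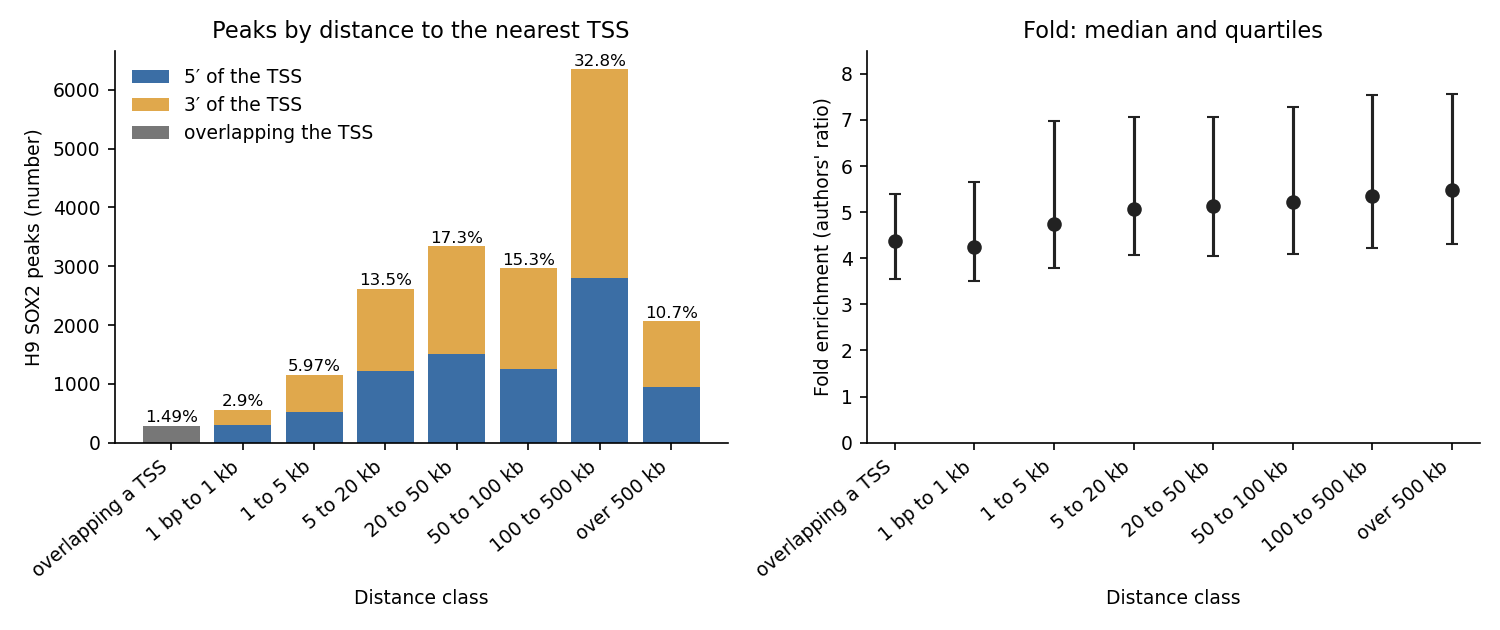
Left, the number of H9 SOX2 peaks in each class of distance to the nearest transcription start site (TSS), split into peaks 5′ of it, 3′ of it or overlapping it, with the percent of all 19325 peaks above each bar. Right, the median fold enrichment of the same classes with bars from the lower to the upper quartile; the median was 4.37 over a TSS, 4.25 at 1 bp to 1 kb and 5.49 beyond 500 kb.

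The number of peaks per gene start differed between chromosomes. Chromosome 13 had 203 peaks per 100 recovered TSS and chromosome 4 had 180, against 16.4 on chromosome 19 and 31 on chromosome 22. Per Mb between the first and last start the spread was smaller, with 8.13 on chromosome 6, 8.12 on chromosome 13 and 3.41 on chromosome 19. The share of peaks within 1 kb of a start was 9.95% on chromosome 19 and 2.57% on chromosome 13, while the median fold was 4.62 and 5.19.

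Peaks were more often downstream of the nearest start than upstream of it. The share of the genome on each side was not computed, so these counts show no preference for a side. Of the peaks off a TSS, 10493 lay 3′ of the nearer listed start and 8542 lay 5′ of it (55.1% 3′, 95% interval 54.4 to 55.8). Between 50 and 100 kb the 3′ share was 57.6% (55.8 to 59.4). Within 1 kb the counts were 264 on the 3′ side and 296 on the 5′ side (47.1% 3′, 43 to 51.3), an interval that holds an even split. Where the peak covered a TSS with a recovered position, its summit lay a median of 49 bp upstream of the start (median -49 bp, quartiles -181 and 114), and 163 of 237 summits (68.8%) were within 250 bp of it.

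Peaks near starts had lower folds than distant ones, while their tags differed by class. The median fold was 4.29 for the peaks within 1 kb and 5.34 for those beyond 50 kb, while the median tags were 46 and 45. Peaks over a TSS had a median of 58 tags and those 1 bp to 1 kb away 42, against 43 beyond 500 kb. At an FDR of at most 5% the median tags within 1 kb were 1.14 times those beyond 50 kb. The median width of peaks that overlapped a TSS was 772 bp, against 615 bp beyond 500 kb. Of the peaks within 1 kb, 53 (6.25%) belonged to the top 10% of the list by score, against 1178 (10.4%) of those beyond 50 kb. Across the 19325 peaks, Spearman's rho between distance and fold was 0.10, a weak relation among points that share a library.

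Strength was measured in 3 ways in the deposited list, and these did not rank the same peaks. A peak held a median of 46 ChIP tags (range 16 to 6916) over a median width of 633 bp (range 215 to 57921). The fold enrichment over background had a median of 5.19 (range 2.16 to 51.7), and the score, read as -10 times the log10 of the p-value, a median of 51.5 (range 30 to 2724). Across peaks, tags followed width most closely, with a rho of 0.88, and tags are summed over the width. Fold followed score with a rho of 0.82 and width with only 0.25.

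**Figure D2:**
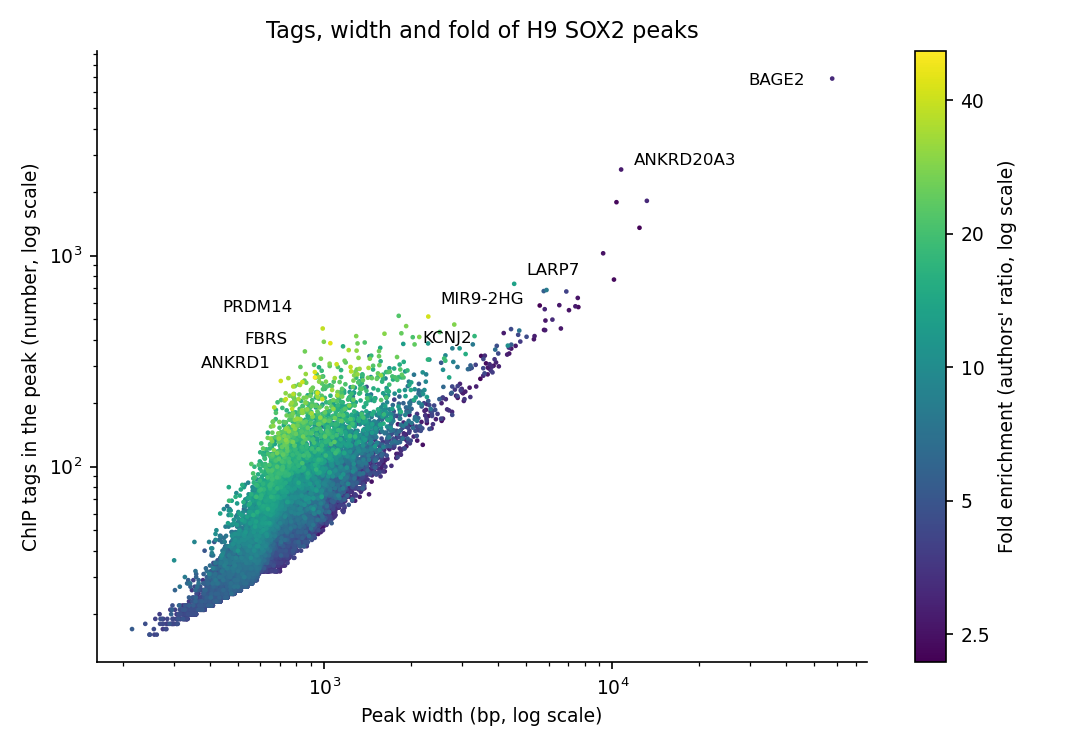
ChIP tags in each of the 19325 H9 SOX2 peaks against its width, both on log scales, with points coloured by fold enrichment and the nearest gene written beside some of the peaks with the highest score or most tags. The peaks with the most tags, such as BAGE2 with 6916, are wide and low in fold (3.15), while PRDM14 holds 452 tags in 987 bp at a fold of 38.6.

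The highest score belonged to a site inside the neighbourhood of PRDM14, a zinc-finger regulator that keeps human embryonic stem cells pluripotent. The site (hg19, chr8:70889299-70890285) lay 93.3 kb 3′ of the PRDM14 start, with 452 tags (exact Poisson interval 411 to 496), a fold of 38.6 and the most tags per width in the list, 458 per kb. ANKRD1, a muscle ankyrin repeat gene, had the next score at a peak 3852 bp 5′ of its start, with 385 tags (347 to 425) and a fold of 44.9. FBRS followed with 391 tags and a fold of 27.9 at 13.3 kb on the 3′ side. The fourth, in MIR9-2HG, the host transcript of a neural microRNA gene, was wide at 2295 bp and held 515 tags with a fold of 41.5.

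Several of the strongest sites lay in gene deserts. The fifth by score (chr17:69028240-69030162) had 464 tags and a fold of 27.6 and was listed between KCNJ2, 862565 bp away, and SOX9, a SOX gene of cartilage and gonad, 1086998 bp away. The highest fold of the list, 51.7, was at a peak of 265 tags that lay 1163531 bp 5′ of CNTN5, a neural adhesion gene, and 1604255 bp from JRKL on the other side. A pair of neighbouring peaks lay 711080 and 712314 bp 5′ of MAP3K7, a kinase gene of TGF-beta signalling, with 281 and 255 tags and folds of 42.8 and 41.7. Others of the 15 highest scores lay nearest to SLC25A13 (178 kb), PPP1R3B (113 kb), FGF1 (3.58 kb), CCNH (374 kb), MME (282 kb), MARCKS (79.7 kb) and ITPRID1 (50.7 kb), with 306 to 519 tags. Among the peaks over 500 kb from a start, the next scores were nearest to NAALADL2, OLFM4, STIM2, TENM4, C4orf33 and AJAP1, with 209 to 384 tags and folds of 17.7 to 38.8.

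High fold and dense tags marked further sites. ASIC2, SHB, PCLO and TENM4 had folds of 41.4, 40.8, 39.3 and 38.8, at 99.2, 145, 48.6 and 879 kb from their starts. DPPA5, an early embryonic RNA-binding protein gene, had 360 tags per kb in a peak of 826 bp that lay 4328 bp 3′ of its start. TMPRSS11E followed with 351 tags per kb, and LEFTY1, a Nodal antagonist gene, had 330 at a site 9923 bp 5′ of its start. All of these are far above the median of the list, 69.6 tags per kb.

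Within 1 kb of a start, POU5F1 had the peak with the highest score, with 429 tags, a fold of 24.3 and the peak edge 965 bp 5′ of the start. SOX6, a SOX gene of neurons and cartilage, and OTX2, a forebrain regulator, had peaks over a TSS with 241 and 248 tags and folds of 20.8 and 22.6. PRICKLE1, a planar cell polarity gene, had 202 tags and a fold of 23.2 at 134 bp. Over the TSS of NTMT2, which encodes a protein methyltransferase, the peak held 162 tags at a fold of 23.3. TGIF1, a repressor in TGF-beta signalling, had 322 tags and SFRP2, a secreted WNT antagonist, 234. REST, the repressor of neuronal genes, had 185 tags at 107 bp, and LEFTY1 had 167 at 675 bp. The other members of this group were CACHD1, LRRTM4 and PSMD9, with 265, 135 and 137 tags.

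The remaining 3 of the 15 were an amino acid transporter gene and its copies. SLC7A5, SLC7A5P1 and SLC7A5P2 had summits at -1117, -1094 and -1090 bp from their starts, folds of 16.4, 15 and 14.9 and 273, 305 and 366 tags. They are near-identical copies on chromosome 16, and how reads that fit several places were counted is not given in the sources used here. Which of the 3 loci the tags came from is therefore uncertain.

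Other peaks that covered a TSS included LINC00261, a long non-coding RNA beside FOXA2, with 139 tags and a fold of 17.6, and HESX1, a forebrain and pituitary regulator, with 178 tags and a fold of 15.7. ZNF532, LOC100131496 and MACROH2A1, a histone variant gene, had folds of 12.9, 15.5 and 14.6. SNRPN, TIMP4, LRRTM3 and GJC1 had folds between 11.5 and 13.9. SNORD104 stood apart, with 344 tags spread over 4015 bp and a fold of 4.38.

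The peaks with the most tags were a different kind of site. BAGE2 on chromosome 21 had 6916 tags in 57921 bp, with a fold of 3.15 and a score of 64.9. ANKRD20A3, LINC01138, FANK1, FRG2C and POTEB3 followed with 771 to 2563 tags at folds of 2.21 to 3.13, and NBEAP1 was among the 10 widest with 576 tags and a fold of 2.73. Several of these names belong to gene families with copies beside centromeres or in segmental duplications, where the place of a read is uncertain. Above 5000 bp there were 25 peaks, with a median of 581 tags but a median fold of 2.66, against 42 tags and 5.34 for the 11064 peaks of 500 to 750 bp. LARP7 and SSTR1, also among the 10 with most tags, had 736 and 680 tags in 4560 and 5775 bp and higher folds, of 13.5 and 5.54.

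The summit, the point of highest tag density, lay near the middle of narrow peaks and off centre in wide ones. Its median distance from the middle was 40.5 bp over all peaks, 26 bp at widths of 500 to 750 bp and 2326 bp above 5000 bp. At 500 to 750 bp, 93.5% of summits lay in the middle part of the peak, from 33.3% to 66.7% of its width, against 50% at 1000 to 2000 bp and 28% above 5000 bp. Peaks under 500 bp were less centred than the next class, with 76.6% in that middle part and a median of 26 tags. The top 10% by score were a little less centred than the list, at a median of 51.8 bp, and had a median width of 844 bp. At PRDM14 the summit was base 400 of 987, and at BAGE2 it was base 51536 of 57921.

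**Figure D3:**
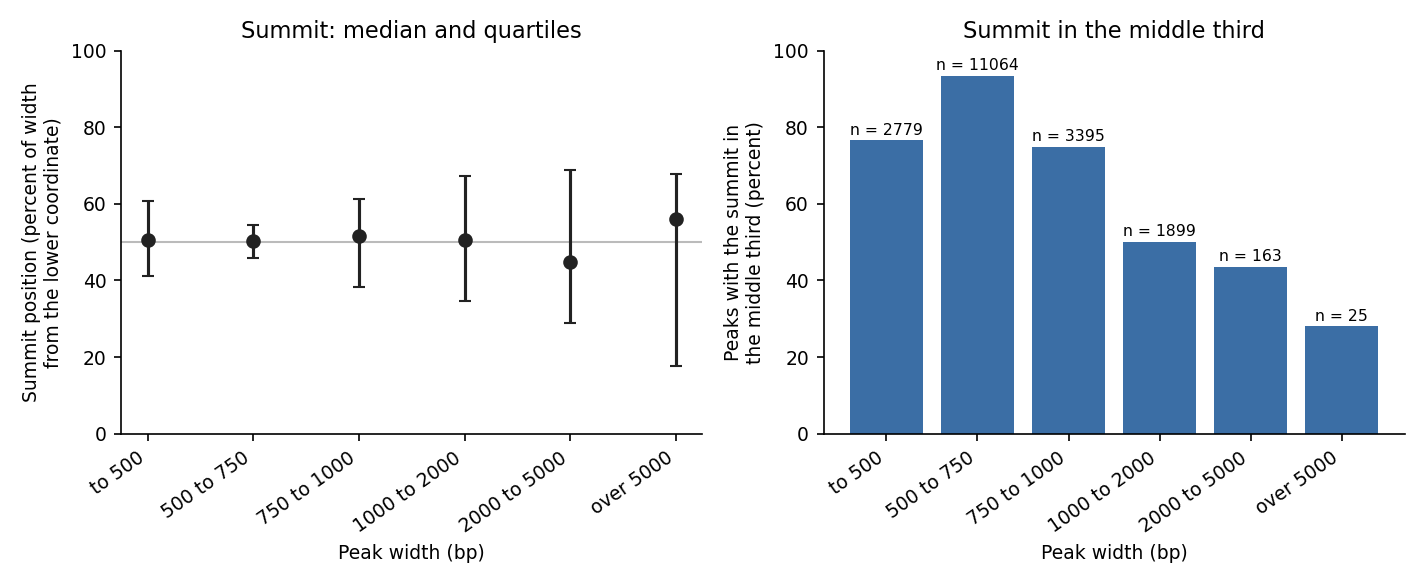
Left, the position of the summit within the peak, in percent of the width from the lower coordinate, by class of width, as the median with bars from the lower to the upper quartile; the grey line is the middle. Right, the percent of peaks whose summit lies between 33.3% and 66.7% of the width, with the number of peaks above each bar, which falls from 93.5% at 500 to 750 bp to 28% above 5000 bp.

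The deposited false discovery rate (FDR) did not fall steadily with score. The 2 strongest peaks, PRDM14 and ANKRD1, carried an FDR of 100%, FBRS 66.67% and MIR9-2HG 50%. From the second to rank 39 the FDR multiplied by the rank was 200 within 2%. MACS, the peak caller, takes its FDR from the peaks found when ChIP and control are exchanged, divided by the ChIP peaks, at each score. Over all peaks FDR fell with score (rho -0.98), down to 0.44% near a score of 250, but the 59 highest scores were all above 5%. In all 8931 peaks (46.2%) had an FDR of at most 5%, and that limit drops both the weakest and the very strongest peaks, so no peak was left out by it here.

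Some genes had several SOX2 peaks, and the number that an even scatter of peaks would give was not computed. With each peak given to the nearer of its 2 listed genes, within 50 kb, 5417 of 19570 genes had at least 1 peak (27.7%), 1620 had 2 or more (8.28%), 562 had 3 or more and 85 had 5 or more. The 4155 peaks at genes with 2 or more made up 52.3% of the 7952 peaks within 50 kb. The number depends on the room around a gene. Among 4591 genes to which at least 90 kb of sequence was nearest, 904 (19.7%) had 2 or more peaks, against 715 (5.27%) of 13570 genes with less. At the genes with several peaks, side was taken from the listed start nearest to each peak. By that count 766 genes (47.3%) had peaks on both sides, 345 on the 5′ side alone and 432 on the 3′ side alone. Where a gene has several listed starts, peaks on both sides need not flank the same start. The strongest peak held a median of 1.53 times the tags of the next (quartiles 1.19 and 2.1), and in 455 genes (28.1%) it held at least 2 times as many. Only these 2 peaks of each gene were compared.

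More peaks did not go with a higher fold per peak. Peaks at genes with 1 peak had a median of 45 tags and a fold of 4.94, and those at genes with 5 or more a median of 57 tags and a fold of 4.86. The strongest peak of a gene did differ, with a median of 45 tags and a fold of 4.94 at 1 peak and of 127 tags and a fold of 10.1 at 5 peaks. A maximum over more peaks is higher by construction.

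NR2F2, a nuclear receptor gene of mesoderm, endoderm and neural development, had the most peaks, 11. Taken from the listed start nearest to each peak, their distances ran from 31646 bp 5′ to 28741 bp 3′. NR2F2 has several listed starts, and these distances are not all from the same start. The peaks had 35 to 124 tags each and 762 in all, and the highest fold was 13.7, at 4817 bp from the nearest start. DTNA, a dystrobrevin gene, and SORBS2, a cytoskeletal adaptor gene, had 9 each, with 641 and 614 tags in all. The sequence nearest to their listed starts came to 408 and 336 kb, against 107 kb for NR2F2. Per 100 kb of it they had 2.21 and 2.68 peaks, against 10.2 for NR2F2. CCN2, a secreted growth factor gene, L1TD1, an RNA-binding protein gene of stem cells, PRICKLE1, FOXN3, ATXN7L1 and ZEB2, a neural and mesenchymal repressor, had 7 each. Among the 15 genes with most peaks, PRICKLE1 and FZD7, a WNT receptor gene, had the highest folds, 23.2 and 20.7.

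The genes with the most summed tags were mainly those with a wide peak. BAGE2, POTEB3, FANK1 and FRG2C had 1325 to 6916 tags at folds of at most 3.19, and LOC646214 had 924 at a fold of 3.21. SSTR1, a somatostatin receptor gene, had 1162 tags in 5 peaks, LARP7 941 in 2 and ZNF717 916 in 3. MIR9-2HG had 847 tags in 5 peaks, of which the strongest held 515 and the others 29 to 197.

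Neighbouring peaks also formed groups. With peaks joined when their edges lay within 10 kb, 4959 peaks (25.7%) fell into 2145 groups of 2 or more, 470 of them with 3 or more and 51 with 5 or more. The largest were in the histone gene cluster of chromosome 6. A group at H4C5 had 10 peaks and 1437 tags in 70.1 kb with no fold above 4.3, and the next, at H4C8, had 9 peaks with folds up to 5.36. Histone genes have near-identical copies, and how the authors placed reads that fit several copies is not known here. The peaks given to H4C8 lay up to 37.1 kb 5′ of its start, so most are not on the H4C8 copy itself. TRIM27, with 8 peaks and folds up to 4.91, lies on the same chromosome. After these came NR2F2 with 8 peaks and HTR2C and HOXD3 with 7 each, with top folds of 13.7, 10.1 and 8.16.

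**Figure D4:**
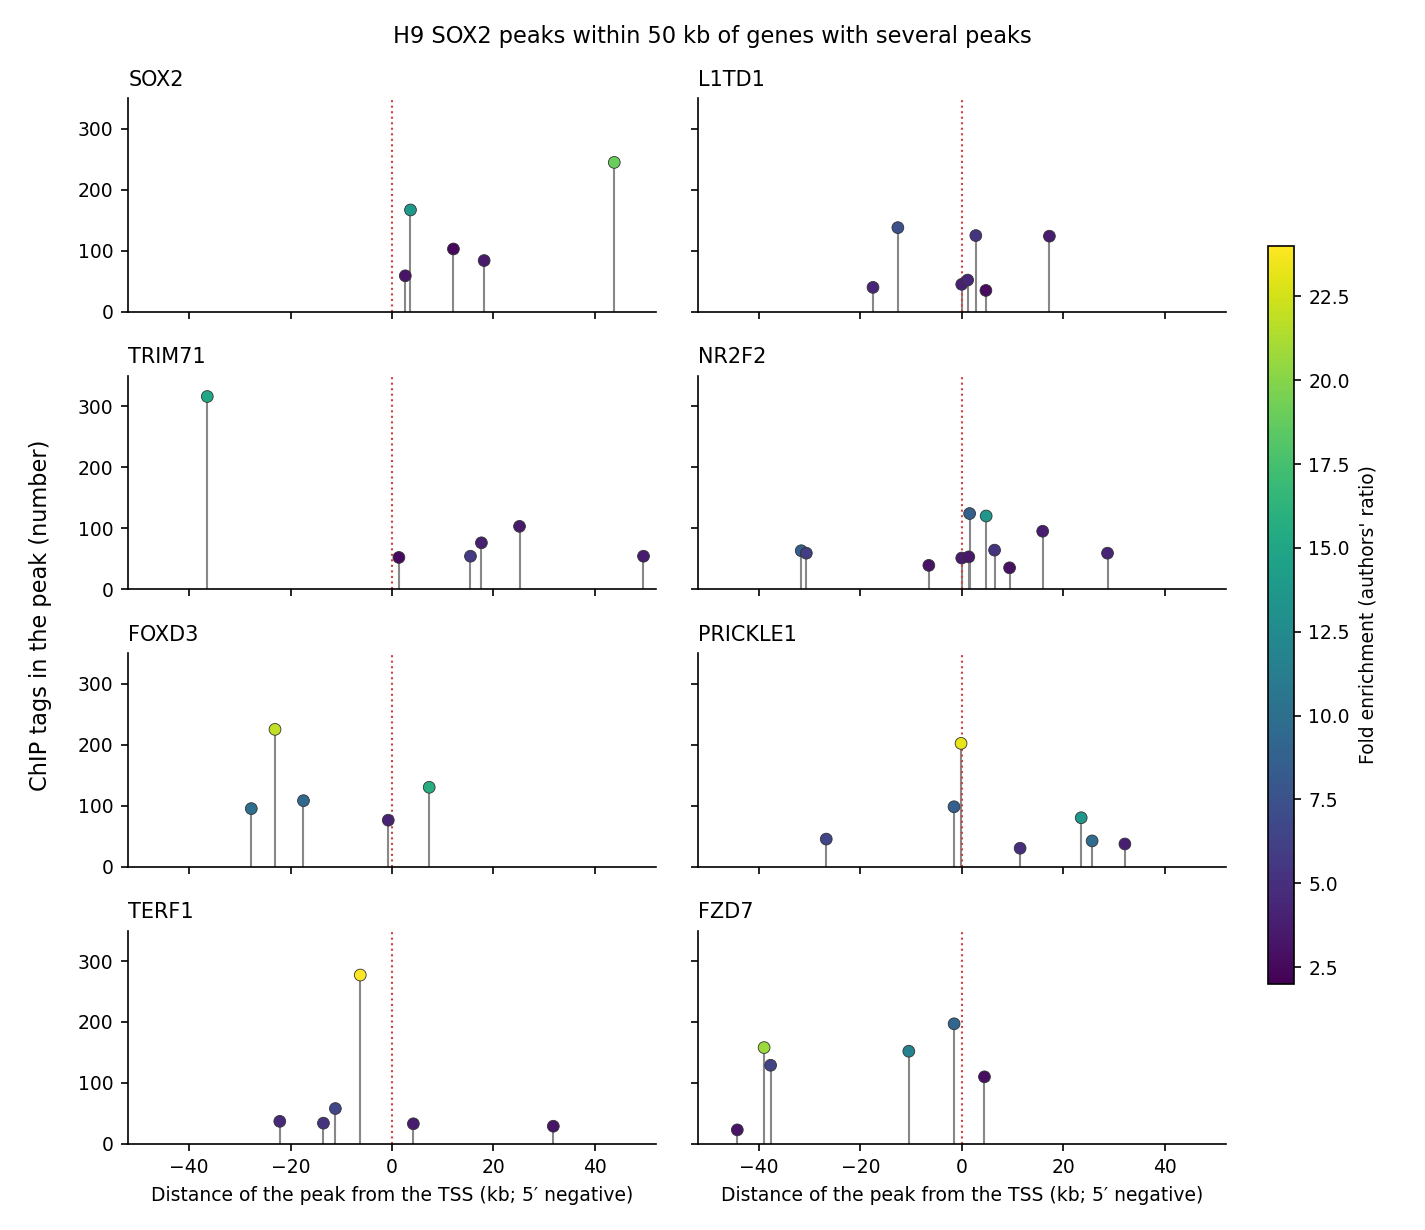
The H9 SOX2 peaks within 50 kb of 8 genes with several peaks, each drawn as a stem. Its place is the distance from the gene's nearest listed transcription start site (TSS, red dotted line, 5′ side negative). Its height gives the ChIP tags and its colour the fold enrichment. PRICKLE1 and NR2F2 have several listed starts, all drawn at the same line, so their stems do not show positions along the chromosome. All 5 peaks of SOX2 lie 3′ of its start, and the strongest of TRIM71 (316 tags) lies 36.4 kb 5′ of its start. The 11 peaks of NR2F2 lie on both sides of its listed starts.

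The listed core pluripotency genes carried SOX2 peaks more often, and stronger ones, than genes in general. This list and those below were chosen with earlier results of these data known. Their shares are therefore descriptions and not independent support. Of 30 listed genes, 24 had a peak within 50 kb (80%, 95% interval 62.7 to 90.5), against 27.7% of all genes, and 18 had 2 or more (60%), against 8.28%. Within 5 kb it was 20 of 30 (66.7%), against 9.04%. A peak of the top 10% of the list by score lay near 15 of the 30 (50%), against 3.62% of all genes. The median of the highest fold per gene with a peak was 11.9 for this list and 5.41 for all genes with a peak. The sequence nearest to a listed gene's start had a median length of 75.7 kb, against 60.1 kb over all genes.

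The partners of the core circuit had peaks of their own. SOX2 itself had 5 peaks within 50 kb, all on the 3′ side. The strongest of them lay 43818 bp from the start, with 245 tags and a fold of 19, and the next 3641 bp away with 167 tags and a fold of 13.9. The other 3 had 59 to 103 tags and folds of 2.51 to 3.59. SOX2 was also the nearer listed gene of 7 peaks beyond 50 kb, and the first of these by score, with 249 tags and a fold of 17.2 at 431 kb on the 3′ side, scored higher than any of the 5. POU5F1 had a second peak beside that named above, 1162 bp 3′ of its start with 56 tags and a fold of 5.68. NANOG had a second, weak one, 1902 bp 3′ of its start with 39 tags and a fold of 3.48, and its peak over the TSS, with a fold of 12.9, was only just in the top 10%, at rank 1921 of 1932. PRDM14 had 5 within 50 kb besides the distant one. The strongest of the 5 held 73 tags at 246 bp, with a fold of 6.84, well under the distant site.

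Several other core genes had many peaks, with the strongest often away from the start. TRIM71, a stem cell ubiquitin ligase gene, had 6 peaks, led by 316 tags and a fold of 15.1 at 36.4 kb on the 5′ side. FOXD3, a forkhead factor gene, had 5, with folds of 21.9 at 23.1 kb 5′ and 15.6 at 7333 bp 3′. TERF1, a telomere-binding protein gene, had 6, led by 277 tags and a fold of 24.1 at 6257 bp 5′, while its others held 29 to 58 tags. ZNF281 had 5, led by 244 tags at 44.8 kb 3′. L1TD1 had 7, of which 3 held 124 to 138 tags. DPPA4 had 4, led by 175 tags at 18 kb 5′, and LIN28B, a let-7 regulator gene, had 165 tags and a fold of 13.9 at 96 bp.

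SALL4, JARID2, TCF7L1 and DNMT3B complete the group with a peak in the top 10% together with CRIPTO and DPPA5. SALL4, a zinc-finger factor gene, had 3 peaks, led by 121 tags at 8850 bp 5′. JARID2, a Polycomb partner gene, had 5, led by 161 tags at 37.1 kb 5′. TCF7L1, a WNT pathway repressor gene, had 3, led by 193 tags and a fold of 16.2 at 895 bp. DNMT3B, a DNA methyltransferase gene, had 3 peaks of 79 to 97 tags with folds up to 15.2. CRIPTO, a Nodal co-receptor gene, had 1 peak of 280 tags at 1389 bp 5′.

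Weaker peaks lay at the remaining members. GDF3, a TGF-beta family ligand gene, had 134 tags at 219 bp, UTF1 87 tags at 1609 bp, ZSCAN10 130 tags at 4702 bp and ZFP42 86 tags at 36.2 kb. PODXL had 230 tags at 47.4 kb with a fold of 6.3, and a higher-scoring peak of 179 tags and a fold of 13.3 at 339 kb. MYC had 89 tags at 257 bp with a fold of 3.94, and DPPA2 123 tags at 8444 bp with a fold of 2.94, both below the median fold of the list. No peak was given within 50 kb to LIN28A, DPPA3, KLF4, ESRRB, CDH1 or MYCN. KLF4 was the nearest listed gene to 9 more distant peaks, of which the strongest held 77 tags at 597 kb, and the other 5 genes were the nearer one of no peak at any distance.

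The SOX family had peaks near 11 of 19 genes (57.9%, 36.3 to 76.9, against 27.7% of all genes). Of the 19 genes, 6 (31.6%) had a peak in the top 10% by score, against 3.62% of all genes. These were SOX2 and SOX6, given above, with SOX4, SOX5, SOX13 and SOX21. SOX21, which acts in neural progenitors, had 137 tags and a fold of 17.9 at 4958 bp, SOX4 169 tags and a fold of 15.9 at 4777 bp, and SOX5 77 tags and a fold of 11.4 at 28.6 kb on the 5′ side. SOX13 had 127 tags at 35 kb, SOX9 91 at 29.9 kb, SOX11 113 at 33 kb and SOX14 62 at 47 kb. SOX1, with 133 tags at 10.9 kb, and SOX17, the endoderm factor, with 36 tags at 7651 bp, had folds of only 4.38 and 3.77. Beyond 50 kb, SOX4, SOX5, SOX9 and SOX1 were the nearer gene of a peak that scored higher than any within it, with 194 tags at 407 kb, 157 at 173 kb, 110 at 292 kb and 116 at 93.8 kb. No peak within 50 kb was given to SOX3, SOX7, SOX8, SOX10, SOX12, SOX15, SOX18 or SOX30, though SOX3 had 1 of 66 tags at 150 kb. In the POU family, 8 of 15 genes had a peak (53.3%, 30.1 to 75.2, against 27.7%). POU5F1 alone had one in the top 10% (6.67% of the list, against 3.62% of all genes). POU3F4, POU4F1, POU2F1, POU2F3, POU3F2 and POU4F2 had 43 to 65 tags, and POU3F3 34.

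**Figure D5:**
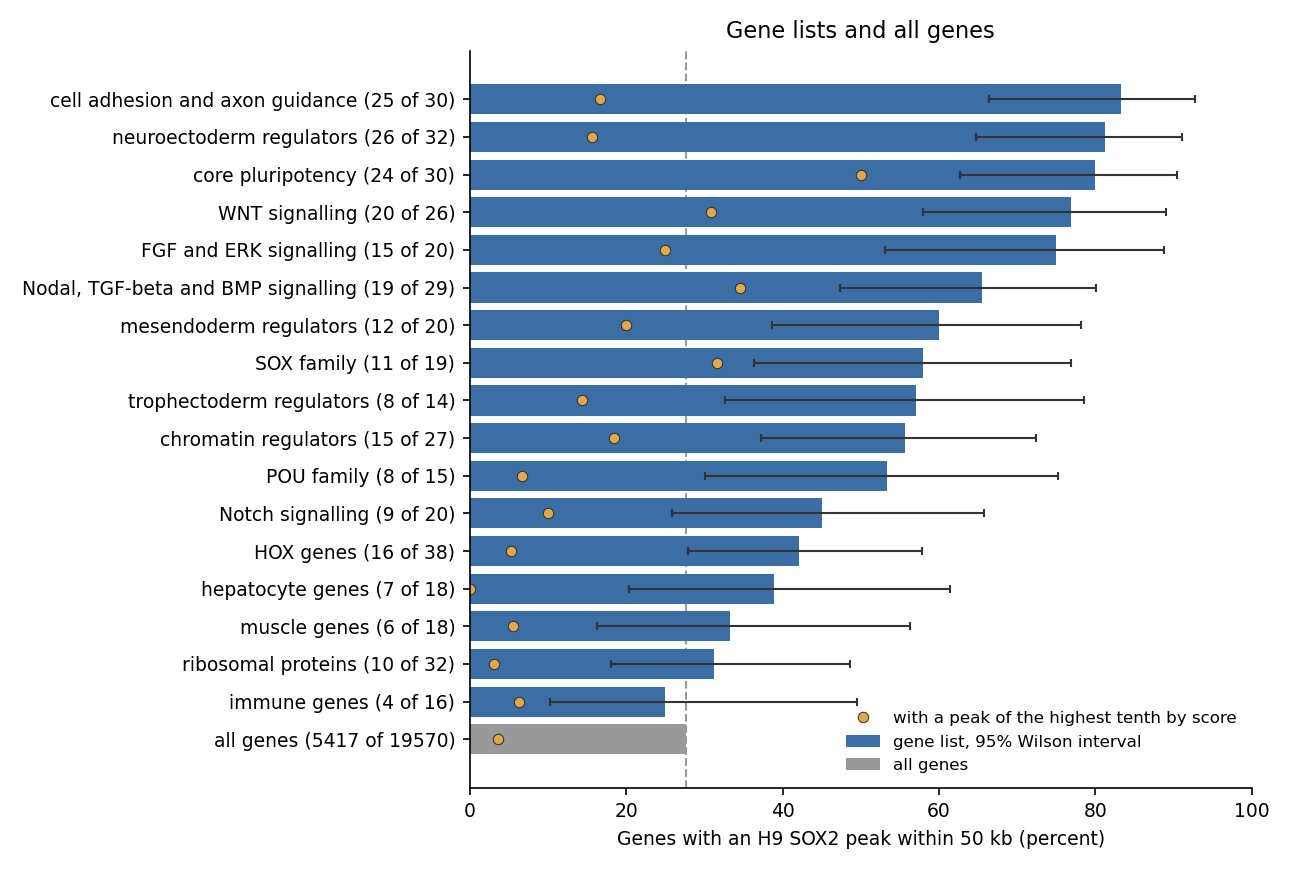
The percent of the genes of each list with an H9 SOX2 peak within 50 kb of the start (blue bars, 95% Wilson intervals, counting error only), with all 19570 genes below them (grey bar and dashed line, 27.7%). Orange points give the percent with a peak of the top 10% by score, which is 50% for core pluripotency and 3.62% for all genes.

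Signalling genes of the stem cell state had peaks in different shares. Ligands, inhibitors and mediators of Nodal, TGF-beta and BMP signalling had peaks at 19 of 29 genes (65.5%, against 27.7% of all genes), and 10 of them had one in the top 10% (34.5%, against 3.62%). Their median highest fold was 12.1. BMP7, a ligand gene, had 240 tags and a fold of 34.9 at 33.9 kb 3′, and BMP4 273 tags and a fold of 23.5 at 24.8 kb 5′. The Nodal antagonists LEFTY1 and LEFTY2 had 304 and 287 tags at 9923 and 4089 bp 5′. SMAD7, an inhibitor of the pathway, had 411 tags at 8100 bp 5′. NODAL had 93 tags and a fold of 4.93 at 13.3 kb.

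For FGF and ERK signalling it was 15 of 20 genes (75%) and for WNT signalling 20 of 26 (76.9%), against 27.7% of all genes. ETV6, an ETS factor gene, had 355 tags and a fold of 30.5 at 39.9 kb 5′, and DUSP6, the ERK phosphatase gene, 336 tags and a fold of 18 at 1508 bp. SPRED2 and SPRY2, which restrain ERK signalling, had 143 and 103 tags, FGFR1 198 and SPRY1 92. FGF2, the ligand, had 6 peaks and 456 tags in all, with a fold of 5.45 at its leading peak. On the WNT side, WNT3 had 205 tags and a fold of 26.6 at 45.7 kb, SFRP2 a fold of 22.4, FZD7 20.7 in 6 peaks, FZD8 18.7 and TCF7L2 15.2. Notch signalling had 9 of 20 genes (45%, 25.8 to 65.8), an interval that holds the 27.7% of all genes. It was led by JAG1, HEY2 and HES5 with folds of 15.1, 11.3 and 15.7.

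Regulators of later lineages also had peaks. Neuroectoderm regulators had them at 26 of 32 genes (81.2%, 64.7 to 91.1, against 27.7% of all genes), 5 genes (15.6%, against 3.62%) had one in the top 10%, and the median highest fold was 5.62, near the 5.41 of all genes with a peak. OTX2, SOX21 and HESX1, given above, led it with LHX2 (153 tags, fold 13.9), ZEB2 (7 peaks, top fold 12.5) and FEZF1 (93 tags, fold 4.95). Adhesion and axon guidance genes had 25 of 30 (83.3%, 66.4 to 92.7, against 27.7%), led by NTN1 with 170 tags and a fold of 25.7 and SEMA3A with 265 tags and a fold of 20.9. CDH2, ROBO2 and EFNB2 had 112, 80 and 98 tags. The stretch of sequence nearest to a start had a median of 100 kb for the adhesion, FGF and ERK and SOX family lists, 98.8 kb for the POU family, 90.6 kb for mesendoderm, 85.3 kb for WNT and 80.3 kb for neuroectoderm, against 60.1 kb over all genes, and its part in these shares was not tested.

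Mesendoderm regulators had 12 of 20 (60%, 38.7 to 78.1, against 27.7% of all genes) with a median highest fold of 8.19, led by CER1, EOMES with 117 tags and KDR with 104, and GATA6, GSC and FOXA2 had 81, 90 and 95. Trophectoderm regulators had 8 of 14 (57.1%, 32.6 to 78.6, against 27.7%) with a median highest fold of 6.78, led by CDX2, which specifies that lineage, with 244 tags and a fold of 16.7 at 2131 bp. TFAP2A had 6 peaks and a top fold of 11.5, and TFAP2C, TEAD4, KRT18 and HAND1 had 114, 64, 47 and 122 tags. Chromatin regulators had 15 of 27 (55.6%, 37.3 to 72.4, against 27.7%), led by REST, PHC1 with 234 tags and a fold of 20.9 at 1963 bp, JARID2, SALL4, DNMT3B and SMARCAD1.

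HOX genes had 16 of 38 (42.1%, 27.9 to 57.8, against 27.7%) although the stretch nearest to each was short, with a median of 12.8 kb. All 16 had a peak within 5 kb (42.1%, against 9.04%). HOXB1 led with 135 tags and a fold of 15.2 at 9608 bp 3′, besides the peak over its promoter, and HOXD12 followed with 123 tags and a fold of 13.5 at 2215 bp. HOXD1, HOXB3 and HOXD13 had 55, 65 and 68 tags. With the upper 50% of peaks by score alone the count was 7 (18.4%), against 15.4% of all genes. Neighbouring HOX genes share the sequence between them, so their peaks are not separate observations.

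Genes of other tissues and of housekeeping were nearer to the share of all genes. Hepatocyte genes had 7 of 18 (38.9%, 20.3 to 61.4), muscle genes 6 of 18 (33.3%, 16.3 to 56.3), ribosomal protein genes 10 of 32 (31.2%, 18 to 48.6) and immune genes 4 of 16 (25%, 10.2 to 49.5), all with intervals that hold 27.7%. Within 5 kb no gene of the 18 hepatocyte or 16 immune genes had a peak, against 9.04% of all genes, and lists this short hold few genes at that share. The highest were APOB and SERPINA1 (folds 11.4 and 9.57), MYF6 (14) and ZAP70 (13.8), at 24, 6.57, 22.9 and 36 kb. Ribosomal genes had a median highest fold of 3.5, and RPS24, with 157 tags and a fold of 16.7 at 5760 bp, was the 1 member of its list in the top 10%.

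Peaks were also given to host transcripts of microRNA genes. Of 20 such genes named in the lists, 11 had a peak within 50 kb (55%, against 27.7% of all genes), 19 peaks in all. The symbols of all 11 begin with MIR and end in HG, so no host under another name is among them. MIR9-2HG was first, with the site of 515 tags at 7800 bp 3′ of its start (chr5:87959052-87961346) and a second of 197 tags at 566 bp. MIR99AHG had 180 tags and a fold of 29.9 at 46983 bp, and MIR31HG 58 tags and a fold of 11.3. The other hosts of the miR-9 family, MIR9-1HG and MIR9-3HG, had 62 and 48 tags at their strongest peaks with folds of 3.26 and 6.23.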

How the data were processed

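Chromatin of H9 cells was precipitated with SOX2 antibody or IgG and sequenced on SOLiD, per the labels' protocols. The authors called peaks with MACS, per the file headers, which give a tag size of 50, a band width of 2000, a model fold of 3, a d of 119 and a p-value cutoff of 0.001. Coordinates are hg19 according to the submitters' processing notes, and the aligner and MACS version are not given in the sources used here. Per the headers there were 72186968 unique of 87170047 ChIP tags (82.8%) and 58012070 of 84245266 IgG tags (68.9%). Peaks held 1179804 tags, 1.63% of the unique ChIP tags, over 14 Mb.

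The authors' tag count is a raw whole number per peak. Their deposited fold is a ratio of ChIP to background, and their FDR is a deposited percent. The deposited score has lost its column name. It was taken as -10 times the log10 p-value because its minimum, 30, equals the cutoff on that scale. The genes on both sides and their distances, peak edge to TSS, are also the authors', and all these values serve only to describe and rank peaks of this list.

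Accessions were turned into symbols with RefSeq (GRCh38.p14, names only), which matched 23782 of 24956 (95.3%). A peak counted for the nearer of its 2 listed genes, within 50 kb, and the 19570 genes named in the 6 lists were the background. A TSS was recovered for 18161 genes, where at least 2 distances met at 1 position. A RefSeq promoter was used where at least 5 of 20 neighbouring starts kept the same spacing within 100 bp, a check added after seeing the data. Scripts in Python 3.11.15 with pandas 2.3.3, numpy 2.4.6 and scipy 1.17.1 were tested on simulated peaks. Shares carry 95% Wilson intervals and tags of single peaks exact Poisson intervals, both for counting error only. Members and gene lists were chosen with earlier results of these data known. HOXA6, RPL22, RPS12 and RPS15 were not among the named genes.

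Genes named are those nearest to the 15 highest scores, to the 10 highest values of tags, fold, width and tags per kb, to the 15 highest scores within 1 kb of a TSS and to the 10 highest beyond 500 kb. Others are the 15 genes with most peaks, the 10 with most summed tags, the 5 largest groups, all core pluripotency and SOX family members and up to 6 leading members of each other list. Of the genes so chosen, 4 are not reported here. The promoters, further peaks over a TSS, the microRNA hosts, chromosomes and a few list members (NODAL, FGF2, SPRY1, POU4F2, POU3F3) were picked after their values were seen. Alternatives were stricter peak sets, other distance limits, distances from the summit and other joining distances.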

Additional observations from a re-analysis of the deposited data

How the results depend on the processing

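Of 110 values under an alternative, 51 moved and 59 did not, where a count moved if it changed by over 1.5 times and a share or ratio of medians if it left its 95% interval. Counts that changed by less include genes with 2 or more peaks (2114 with both listed genes counted) and groups of 2 or more (1485 joined within 5 kb and 2987 within 20 kb, against 2145). The share of peaks within 1 kb of a TSS, 4.39%, was 3.51% in the upper 50% of peaks by score, 3.33% at an FDR of at most 5% and 3.15% with distances taken from the summit. The share beyond 50 kb, 58.9%, was 60.6% in both stricter sets. At an FDR of at most 5% the medians of peaks within 1 kb over those beyond 50 kb had ratios of 0.845 for fold, 1.14 for tags and 1.15 for width, against 0.803, 1.02 and 1.04 in the whole list. The number of genes with several peaks depended most on the limits. Genes with 2 or more peaks, 1620 as reported, numbered 736 within 20 kb, 2502 within 100 kb, 3712 at any distance, 579 in the upper 50%, 515 at an FDR of at most 5%, and 526 with the 59 highest scores put back, an alternative chosen after seeing the data. Those with 3 or more, 562 as reported, numbered 196, 1052, 2262, 157 and 139 under the same first 5 settings, and those with 5 or more, 85 as reported, 20, 206, 1016, 12 and 9. Groups of 3 or more peaks, 470 as reported, numbered 229 joined within 5 kb and 796 within 20 kb.

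Within 5 kb the share of all genes was 9.04%, and several lists had fewer genes with a peak. They numbered 9 for FGF and ERK (45% of the list), 12 for Nodal, TGF-beta and BMP (41.4%) and 12 for WNT (46.2%). Adhesion and axon guidance had 10 (33.3%), chromatin 8 (29.6%), SOX 6 (31.6%), POU 4 (26.7%) and mesendoderm 4 (20%). Ribosomal genes had 4 (12.5%), muscle genes 2 (11.1%), and both hepatocyte and immune genes 0. Within 20 kb hepatocyte genes had 4 (22.2%) and immune genes 2 (12.5%), against 18.4% of all genes. In the upper 50% by score HOX genes had 7 (18.4%), POU 5 (33.3%), hepatocyte 4 (22.2%), ribosomal 3 (9.38%) and muscle 2 (11.1%), against 15.4% of all genes. At an FDR of at most 5% the share of all genes was 14.4%. There HOX genes had 7 (18.4%), POU 5 (33.3%), hepatocyte 4 (22.2%), ribosomal 3 (9.38%), muscle 2 (11.1%) and immune 2 (12.5%). The core pluripotency count stayed between 20 and 24 in every alternative run. No paired analysis was possible because each factor and line had 1 library, and no result comes from a test. With 72186968 unique ChIP tags and no replicate, the depth limits the weak peaks most, where the smallest listed peak had 16 tags, and a gene without a peak is not shown to be unbound.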
